A study of Mus musculus with 2 samples.

Results

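The C1q-low monocytes and recruited macrophages of the mouse uterus were taken from 2 droplet libraries by a rule on UMI counts, that is, on counts of distinct transcript molecules per barcode. A barcode was a member where its C1qa, C1qb and C1qc UMIs summed to under 10, it had at least 5 Lyz2 UMIs, and at least 2 of the 7 genes Ccr2, F13a1, Plac8, Chil3, Ly6c2, Fn1 and Arg1 had a UMI. It also needed at least 1 UMI of Ptprc, Tyrobp or Fcer1g, none of the dendritic cell genes Cd209a and Flt3, and at most 3 UMIs of the stromal gene Col1a2. After barcodes under 1000 UMIs, under 500 genes or above 15% mitochondrial UMIs were dropped, 14848 remained, of which 95 were members, 38 in the DOX plus AMH library and 57 in the DOX library. The cells were chosen by the measured UMIs of these genes, so their levels are described here and support nothing.

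In the DOX plus AMH group, mice received doxorubicin at 3 mg/kg with anti-Müllerian hormone (AMH) at 0.75 mg/kg. The DOX group received doxorubicin at 3 mg/kg without the hormone, and no untreated library is part of this comparison. Uteri were collected 4 h after treatment, those of 5 animals were pooled for each group, and the tissue was digested with papain and collagenase A before 10x Genomics 3′ v3.1 capture. The series text describes 2 weekly doses and mice at postnatal day 25 for its bulk experiment, and whether the animals pooled here were of that age and schedule is not stated. Each group is 1 library, so no difference between the groups could be tested. Printed intervals reflect counting error alone and leave out how cells, animals or pools vary.

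Doxorubicin is an anthracycline that poisons topoisomerase II and breaks DNA, and AMH is a TGF-beta family hormone that signals through the receptor Amhr2. Classical monocytes leave the blood through the chemokine receptor Ccr2, carry Ly6C at their surface, and in tissue either stay inflammatory or mature towards macrophages, losing Ly6C as they do so. Resident macrophages of many tissues make the complement C1q chains in quantity, which newly arrived monocytes lack. Type I interferon induces a large shared set of antiviral genes in such cells, whereas interleukin-4 and repair cues induce genes such as Arg1, Chil3 and Retnla.

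The libraries differed before any cell type was chosen. Their matrices held 8083 barcodes for DOX plus AMH and 9258 for DOX, against 10000 cells collected per group according to the labels, with medians of 9397 and 12674 UMIs. Barcodes with squamous keratin markers numbered 380 in DOX plus AMH and 5 in DOX. In the C1q-low cells, squamous keratin markers summed to 38.6 and 0 CPM (UMIs of the genes scaled to a common library total) and erythroid markers to 77.2 and 11.6 CPM in DOX plus AMH and DOX. The part of these RNAs in the results was not tested. The libraries shared 17 barcode sequences, none of them a member.

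C1q-low cells made up 0.538% of passing barcodes in DOX plus AMH (38 of 7065, exact binomial 95% interval 0.381 to 0.738%) and 0.732% in DOX (57 of 7783, 0.555 to 0.948%). Of the immune barcodes with at least 5 Lyz2 UMIs, they were 18.5% in DOX plus AMH (38 of 205, 13.5 to 24.5%) and 22% in DOX (57 of 259, 17.1 to 27.6%). Both pairs of intervals overlapped. Their median depth was 9395 UMIs in DOX plus AMH (range 1412 to 22893) and 7310 in DOX (1890 to 22850), with medians of 2950 and 2295 genes. Summed over cells this gave 388847 UMIs in DOX plus AMH and 430505 in DOX. Near the C1q limit, 15 barcodes in DOX plus AMH and 5 in DOX met everything else with a C1q sum of 10 to 19, while 5 members in each library had a sum of 5 to 9. No C1q UMI at all was found in 25 of the 38 cells and 43 of the 57 cells. At the Lyz2 limit, 0 and 7 barcodes had 3 or 4 UMIs and met all else, and 2 and 3 members had 5 or 6.

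The label was compared with genes that the rule did not use. Against C1q-high macrophages of the same libraries (133 barcodes in DOX plus AMH and 158 in DOX), 85 of 5136 genes (1.65%) stood higher in C1q-low cells by 2-fold or more in both libraries, and 227 (4.42%) stood lower. These contrasts describe cells that the rule itself set apart. Haptoglobin, Hp, which classical monocytes express, was at 154 CPM in C1q-low cells against 22.2 CPM in C1q-high macrophages of the DOX plus AMH library, and at 116 against 3.43 CPM in the DOX library. Gsr, glutathione reductase, stood at 311 against 34.3 CPM in DOX plus AMH and 174 against 14.9 CPM in DOX. Napsa, an aspartic protease, was at 211 against 17.9 CPM and at 325 against 50.9 CPM in those libraries. The Src-family kinase Fgr, the receptor Sorl1, the myeloid surface receptor gene Sirpb1c and the G protein subunit Gngt2 were likewise higher in both, by 1.84 to 3.09 on the log2 scale.

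Genes of resident macrophages were low. Cd163, the haptoglobin-haemoglobin receptor, had 2.57 CPM in C1q-low cells against 102 CPM in C1q-high macrophages of DOX plus AMH, and 4.65 against 86.4 CPM in DOX. The chemokine Ccl8 was at 72 against 2790 CPM and at 20.9 against 2419 CPM, and 1 cell held 85.7% of its UMIs in the DOX plus AMH members. Hpgds, Fcna, Cbr2 and Pf4 were also among the lowest, and the same cell held 93.5% of the Pf4 UMIs in DOX plus AMH. Timd4 and Vsig4 had no UMI in either set of members. Set against dendritic barcodes (51 in DOX plus AMH and 81 in DOX), 173 of 3351 genes (5.16%) stood higher by 2-fold or more in both libraries, and 161 (4.8%) stood lower. Among them Apoe, the lipid carrier, was at 2099 against 15.3 CPM in DOX plus AMH and 1923 against 43.2 CPM in DOX. Kmo, an enzyme of tryptophan breakdown, was at 2.57 against 133 CPM in DOX plus AMH and 2.32 against 97 CPM in DOX.

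The neutrophil genes S100a9, Ly6g, Retnlg, Camp and Ngp, all 6 eosinophil genes, and the T cell genes Cd3e, Cd3d and Cd3g had 0 UMIs in both libraries' members. Mast cell, T and NK cell, mesothelial and adipocyte lists each summed to at most 4.65 CPM. Stromal markers summed to 347 CPM in DOX plus AMH and 341 CPM in DOX, and endothelial markers to 175 and 20.9 CPM. A single DOX plus AMH cell held 80.3% of the Dcn UMIs there. B cell markers summed to 111 and 156 CPM, with Igkc and Ms4a1 at 0. Most of that was Ighm, the immunoglobulin mu heavy chain, with 36 UMIs in 18 DOX plus AMH cells and 62 UMIs in 27 DOX cells. Neutrophil markers summed to 123 and 95.2 CPM, mostly Csf3r, the G-CSF receptor, which monocytes also make, with 33 UMIs in 23 cells and 38 UMIs in 20 cells. S100a8, a calcium-binding protein, had 7 UMIs in 3 DOX plus AMH cells and none in DOX. In all, 16 of 38 DOX plus AMH cells (42.1%) and 15 of 57 DOX cells (26.3%) held 3 or more UMIs of neutrophil, mast, T, NK or B cell markers. Without those cells the interferon median was -2.01 and the alternative activation median, rule genes included, was 1.29. Chemokine ligands (0.12), BMP, AMH and TGF-beta genes (-0.20) and non-classical monocyte genes (-0.27) then lay on the other side of 0, and the lipid-handling median was 0.31.

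The marker genes of the rule differed in kind between the libraries. Ly6c2, which encodes the Ly6C antigen of classical monocytes, had a UMI in 16 of 38 DOX plus AMH cells and 47 of 57 DOX cells, with a median of 0 UMIs per cell (highest 25) and 19 (highest 74). Summed, that was 188 CPM in DOX plus AMH and 2829 CPM in DOX. After each cell was thinned to 2000 UMIs, 19.4% (7 of 36) and 78.6% (44 of 56) still had one, against 0.0887% and 0.126% of stromal barcodes. Plac8, a small cysteine-rich protein of immature myeloid cells, was at 2042 CPM in DOX plus AMH and 6165 CPM in DOX. It is a weak marker here, since 55.9% of DOX plus AMH stromal barcodes and 77.9% of DOX stromal barcodes also had a UMI after thinning. Most stromal barcodes held Fn1 as well, 54.6% and 68.5%. Lyz2, the lysozyme used as the entry gene, was at 8026 and 9802 CPM, and Ccr2 at 882 and 650 CPM.

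Another 4 rule genes stood higher in DOX plus AMH. Chil3, a chitinase-like protein of alternatively activated cells, was at 3019 CPM in DOX plus AMH (30 of 38 cells) and 409 CPM in DOX (22 of 57 cells). A single DOX plus AMH cell gave 40.5% of those UMIs, and without it the log2 ratio was 2.18 in place of 2.88. Among stromal barcodes, 4.51% in DOX plus AMH and 0.0755% in DOX had a Chil3 UMI. After thinning these shares were 1.11% and 0%, against 61.1% and 28.6% of members. The part of RNA from outside the cells in the members' Chil3 was not tested. Fn1, fibronectin, was at 1281 and 242 CPM, and 1 DOX cell held 48.1% of the DOX UMIs. F13a1, the coagulation factor XIII A chain, was at 519 and 114 CPM. Arg1, the arginase of repair-type macrophages, had 309 UMIs in 10 DOX plus AMH cells (795 CPM) and 2 UMIs in 1 DOX cell (4.65 CPM). Reads of Ly6c2 and Chil3 could be split with their close copies Ly6c1 and Chil4, which had 12 and 0 UMIs and 0 and 0 UMIs in DOX plus AMH and DOX. Of the 12 Ly6c1 UMIs, 10 lay in 1 cell, and none lay in a cell with a Ly6c2 UMI.

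**Figure D1:**
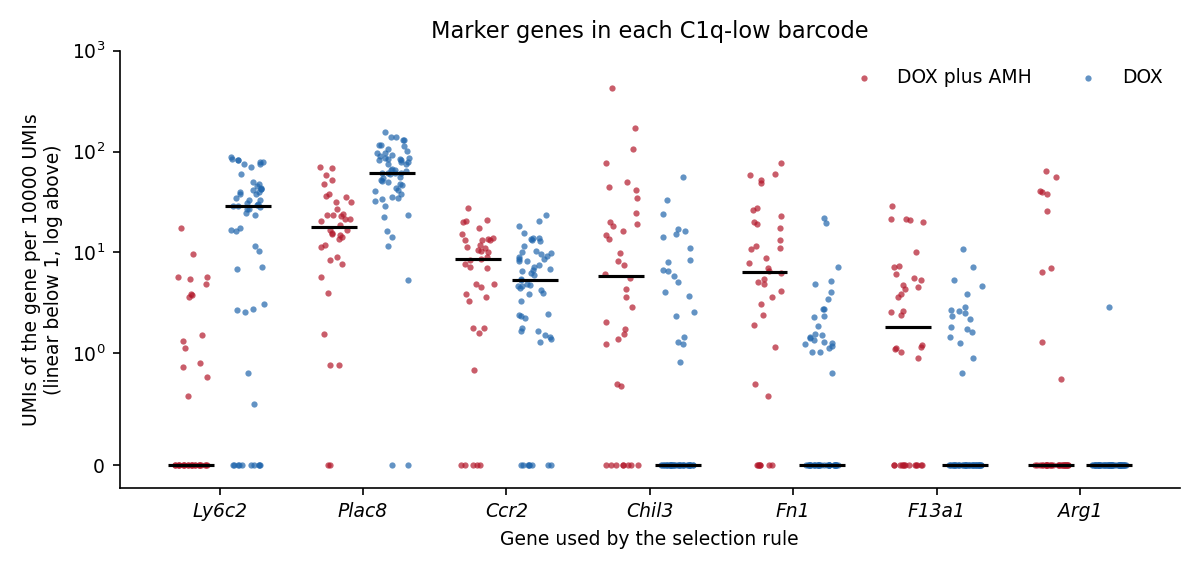
UMIs of 7 rule genes per 10000 UMIs in each C1q-low barcode, with 38 DOX plus AMH barcodes (red) left of 57 DOX barcodes (blue); black lines are medians and the axis is linear below 1 and logarithmic above. Ly6c2 has a UMI in 47 of 57 DOX cells and 16 of 38 DOX plus AMH cells, and Arg1 in 1 and 10.

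Across all genes with at least 50 UMIs in the members and 20 CPM in the higher library, 182 of 2590 (7.03%) stood higher in DOX plus AMH by 2-fold or more, and 219 (8.46%) stood lower. These are counts by size, not of tested genes. The split moved with the scaling. With TMM, which trims extreme genes before scaling, 102 were higher and 322 lower, so the lower share moved from 54.6% to 75.9% of both and the median of all genes from 0.04 to -0.21. Lists were read at a looser 1.3-fold limit among genes with at least 20 UMIs, where 37.4% of 5210 genes were higher and 22.7% lower, with a median log2 ratio of 0.15. In C1q-high macrophages the same limit gave 29.1% higher and 17.5% lower of 9776 genes, with a median of 0.10.

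Of the lists with at least 5 measured genes, interferon-induced genes had the median farthest from 0. Of 45 measured genes, 44 were at least 1.3-fold lower in DOX plus AMH and none was higher, with a median log2 ratio of -2.20, where genes at 0 in DOX plus AMH are set at a floor of 3 counts. Gbp2, a guanylate-binding GTPase, was the exception at -0.35. The list took 10241 CPM of the members' UMIs in DOX plus AMH and 38778 CPM in DOX. With TMM scaling the median was -2.45, on the same side. Many of these genes are induced through a promoter element bound by interferon regulatory factors and the STAT complex ISGF3.

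Because these genes differ together, 5 promoter windows of 300 bases (250 before and 50 after the start) are given from RefSeq on GRCm38.p6, 5′ to 3′. Capitals mark GAAANNGAA or its reverse complement, the core of the interferon-stimulated response element, found by letters alone on both strands with overlaps allowed.
Cxcl10, chr5:92348840-92349139, minus strand: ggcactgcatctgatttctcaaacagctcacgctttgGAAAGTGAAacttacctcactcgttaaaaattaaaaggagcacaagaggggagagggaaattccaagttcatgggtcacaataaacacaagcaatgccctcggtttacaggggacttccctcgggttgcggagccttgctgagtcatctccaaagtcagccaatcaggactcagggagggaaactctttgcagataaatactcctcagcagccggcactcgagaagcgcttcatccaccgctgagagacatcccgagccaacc
Ifit3, chr19:34583279-34583578, plus strand: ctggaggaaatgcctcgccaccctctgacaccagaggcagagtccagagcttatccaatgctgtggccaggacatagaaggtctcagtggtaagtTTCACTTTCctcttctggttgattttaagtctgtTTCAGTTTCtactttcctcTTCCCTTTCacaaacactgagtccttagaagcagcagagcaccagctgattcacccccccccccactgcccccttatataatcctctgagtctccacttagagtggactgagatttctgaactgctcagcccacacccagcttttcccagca
Rsad2, chr12:26456403-26456702, minus strand: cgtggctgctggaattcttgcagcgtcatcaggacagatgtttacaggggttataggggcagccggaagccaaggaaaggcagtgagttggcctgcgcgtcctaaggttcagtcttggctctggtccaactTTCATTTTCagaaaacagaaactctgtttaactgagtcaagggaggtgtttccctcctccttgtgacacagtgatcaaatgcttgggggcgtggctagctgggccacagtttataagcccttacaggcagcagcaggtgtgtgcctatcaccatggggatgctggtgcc
Isg15, chr4:156200769-156201068, minus strand: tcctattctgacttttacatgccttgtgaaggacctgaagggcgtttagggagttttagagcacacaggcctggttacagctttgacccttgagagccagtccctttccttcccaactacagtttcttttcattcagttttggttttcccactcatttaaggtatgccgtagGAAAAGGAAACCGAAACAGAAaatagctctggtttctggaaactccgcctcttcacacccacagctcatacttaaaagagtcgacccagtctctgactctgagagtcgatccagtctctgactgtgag
Slfn4, chr11:83174936-83175235, plus strand: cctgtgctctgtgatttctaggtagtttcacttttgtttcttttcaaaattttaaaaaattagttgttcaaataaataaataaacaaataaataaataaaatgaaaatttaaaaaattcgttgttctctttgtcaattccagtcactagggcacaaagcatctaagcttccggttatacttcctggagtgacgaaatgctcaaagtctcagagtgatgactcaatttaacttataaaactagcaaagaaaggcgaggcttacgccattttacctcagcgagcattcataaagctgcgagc

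The Ifit3 and Isg15 windows each held 3 matches, those of Isg15 overlapping as 1 run, and the Cxcl10 and Rsad2 windows held 1. The Slfn4 window had no match to these letters. Of the other interferon genes among the 15 lowest, not printed here, Ifit2, Oasl1 and Irf7 had no match either. Ifit3b, Ifi205 and Ifit1 had matches. Over the whole list, 36 of the 46 annotated genes matched a RefSeq promoter, and 27 of their 41 promoters (65.9%) held the motif, against 2812 of 32851 promoters of that length (8.56%). A match is a string of letters and not a bound site.

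Isg15, a ubiquitin-like antiviral protein, had a median of 0.5 UMIs per cell in DOX plus AMH (highest 15) and 18 in DOX (highest 68). Summed, it was at 152 CPM (95% interval 116 to 196) in DOX plus AMH and 2662 CPM (2510 to 2821) in DOX, a log2 ratio of -4.13 (-4.54 to -3.75). A UMI was found in 19 of 38 and 50 of 57 cells. At 2000 UMIs per cell the shares were 22.2% and 83.9%, against 5.76% and 12.6% of stromal barcodes, and in DOX plus AMH its interval of 10.1 to 39.2% lay above the stromal share.

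Several antiviral effectors had few or no UMIs in DOX plus AMH. Slfn4, a Schlafen family gene of myeloid cells, had 0 UMIs in DOX plus AMH and 282 UMIs over 44 DOX cells. With the 0 set at a floor of 3 counts it was 84.9-fold lower, a value that depends on the floor and is not an exact limit. On the same floor Ifit2, with 0 and 159 UMIs, was 47.9-fold lower. Ifit3b was at 0 and 72 UMIs and Ifit1bl1 at 0 and 70, on that floor 21.7-fold and 21.1-fold lower. Ifit3, a tetratricopeptide protein that binds viral RNA with its relatives, had 3 UMIs in 2 DOX plus AMH cells and 347 UMIs in 43 DOX cells, a log2 ratio of -6.71 (-8.99 to -5.15). Ifit3 and Ifit3b are near-identical copies, so their split is uncertain. Rsad2, viperin, had 3 and 254 UMIs (-6.26, -8.54 to -4.69), and Oasl1 had 1 and 103 UMIs (-6.54, -11.86 to -4.03). These genes had a UMI in 16 to 44 DOX cells and in at most 3 DOX plus AMH cells.

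Regulators, sensors and abundant surface members were lower as well. Irf7, the factor that amplifies the interferon response, was at 97.7 CPM in DOX plus AMH and 1357 CPM in DOX (-3.80, -4.31 to -3.32). The nucleic acid sensor family gene Ifi205 had 3 and 132 UMIs (-5.31), and Ifit1 had 5 and 125 (-4.50). Bst2, tetherin, was at 347 and 2211 CPM (-2.67), Ifi27l2a at 2819 and 7415 CPM (-1.40), Ifitm3, which blocks viral entry, at 3055 and 7761 CPM (-1.34), and Ly6e at 972 and 2037 CPM (-1.07). The interferon receptor chain Ifnar2 did not share this pattern, at 260 and 235 CPM (0.15, -0.27 to 0.56). In C1q-high macrophages 45 of 46 genes were at least 1.3-fold lower, with a median of -1.51, and Gbp7 was at -0.20. The 2 cell sets come from the same libraries, and whether their ratios differ could not be tested.

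**Figure D2:**
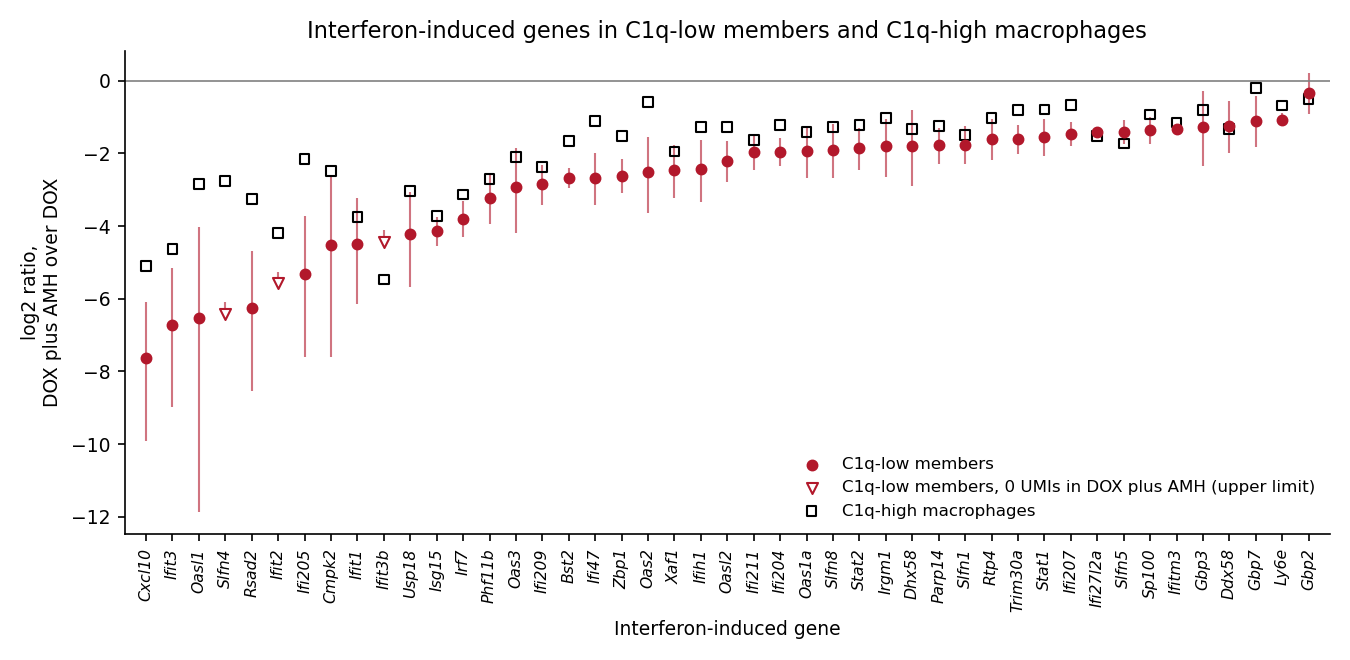
The log2 ratio, DOX plus AMH over DOX, of each of the 45 measured interferon-induced genes in C1q-low cells (red, with exact 95% counting intervals) and in C1q-high macrophages (black squares). Open triangles are upper limits for genes with 0 UMIs in DOX plus AMH; all but Gbp2 lie at least 1.3-fold below 0 in C1q-low cells.

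The difference was spread over cells rather than carried by a few. Interferon-induced genes took a median of 0.917% of a cell's UMIs in DOX plus AMH (lowest 0.194%, highest 2.9%) and 4.1% in DOX (0.298% to 7.67%). None of the 38 DOX plus AMH cells reached the DOX median, and 42 of 57 DOX cells lay above the highest DOX plus AMH cell. The sets overlapped in the remaining DOX cells.

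The list was also summed in cells with and without a Ly6c2 UMI. This split is not independent of the list. In DOX, Ly6c2 had a UMI in 26 of 27 cells with Cxcl10 and 21 of 30 without it. For Slfn4 the numbers were 41 of 44 and 6 of 13. Summed over the cells of each kind, values were as follows. The list took 12340 CPM in the 16 DOX plus AMH cells with a Ly6c2 UMI, against 44549 CPM in the 47 DOX cells with one. In cells without a Ly6c2 UMI it took 8504 CPM in the 22 of DOX plus AMH and 12930 CPM in the 10 of DOX. Among Ly6c2-positive cells alone the median log2 ratio was -2.37, and among Ly6c2-negative cells it was -0.66, from 22 DOX plus AMH cells and 10 DOX cells. Isg15 was at -3.78 and -1.52 in these subsets. The share of Ly6c2-positive cells differed between the libraries as well, and its part in the difference over all cells was not tested. In the Ly6c2-negative cells, Bst2 (0.03) and Ly6e (0.05) did not lie below 0.

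**Figure D3:**
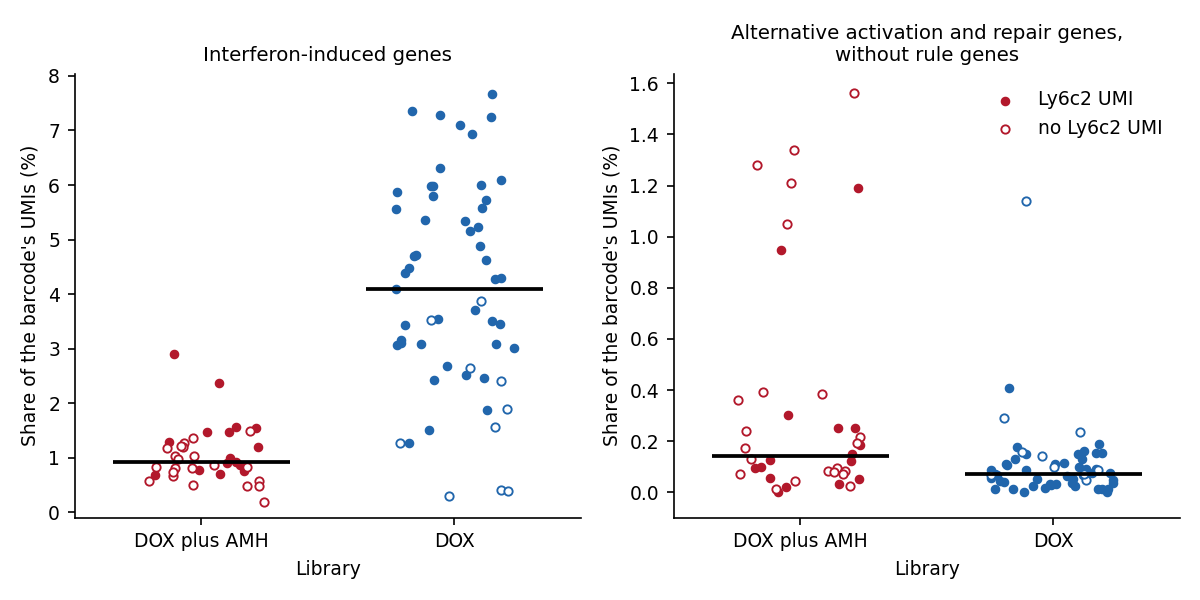
Share of each C1q-low barcode's UMIs in interferon-induced genes (left panel) and in alternative activation and repair genes other than the rule genes (right panel), DOX plus AMH (red) left of DOX (blue). Filled points had a Ly6c2 UMI, open points had none, and lines are medians: 0.917% and 4.1% for interferon, 0.141% and 0.0732% for alternative activation.

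Alternative activation and repair genes stood higher in DOX plus AMH. Arg1, Chil3 and Fn1 are on this list and also chose the cells, so they are left out of its counts here. Of the other 12 measured genes, 9 were higher at the 1.3-fold limit, 1 was lower and the median was 0.86. With the rule genes the median was 1.63 over 15, which is not independent of the choice of cells. Mrc1, the mannose receptor, was at 406 CPM (23 of 38 cells) in DOX plus AMH and 128 CPM (11 of 57 cells) in DOX, a log2 ratio of 1.67 (1.22 to 2.14). Ear2, an eosinophil-associated ribonuclease that macrophages also make, was at 242 and 72 CPM (1.75, 1.15 to 2.38), but 1 DOX cell held 51.6% of its DOX UMIs. Among Ly6c2-negative cells Ear2 was on the other side, at -0.39. Thbs1, thrombospondin, was level at 260 and 253 CPM (0.04). Tgfb1, the cytokine TGF-beta 1, was lower at 162 and 260 CPM (-0.68, -1.15 to -0.23). Without the rule genes, the list took a median of 0.141% of a cell's UMIs in DOX plus AMH (0% to 1.56%) and 0.0732% in DOX (0% to 1.14%). The libraries overlapped, with 28 of 38 DOX plus AMH cells above the DOX median and 13 of 57 DOX cells above the DOX plus AMH median.

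The largest ratios on this list came from few cells. The eosinophil-attracting chemokine Ccl24 had 357 UMIs in 10 DOX plus AMH cells, 51.8% of them in 1 cell, and 3 UMIs in 2 DOX cells, a ratio of 7.04 (5.48 to 9.33). Without that cell its ratio was 6.07 (4.50 to 8.37). Slc7a2, an arginine transporter, had 50 UMIs in 4 DOX plus AMH cells and 0 in DOX, but 90% lay in 1 cell and the next highest cell had 2. Retnla, a secreted repair protein, had 307 UMIs in 10 DOX plus AMH cells, while all 209 of its DOX UMIs lay in 1 cell. A Retnla UMI was also present in 6.23% of DOX plus AMH stromal barcodes and 0.528% of DOX stromal barcodes. Without the rule genes, the list took 9205 CPM in the 10 Arg1-positive cells of DOX plus AMH and 1393 CPM in the 28 others, a split made on a gene of the rule. These 10 cells held 352 of the Ccl24 UMIs and 267 of the Retnla UMIs. All 10 had Chil3 and Fn1, 6 had Ccl24 and 2 had Ly6c2. Without Arg1-positive cells the list median, rule genes included, was 0.44, with Chil3 at 0.44 and Mrc1 at 0.74. In C1q-high macrophages 15 of 18 genes were higher, with a median of 2.08.

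Chemokine ligands went both ways. At the 1.3-fold limit, 6 of 15 were higher and 8 lower, and the median was -0.58. Cxcl10, which attracts T cells through Cxcr3, had 3 UMIs in 2 DOX plus AMH cells and 661 UMIs in 27 DOX cells, a log2 ratio of -7.64 (-9.92 to -6.08). After thinning, 0 of 36 DOX plus AMH cells (exact interval up to 9.74%) and 41.1% of DOX cells had a UMI, against 3.86% and 7.38% of stromal barcodes. Ccl2, the main ligand of Ccr2, was at 453 and 2026 CPM (-2.16, -2.40 to -1.93). Its close relative Ccl12 was at 54 and 1085 CPM (-4.33), and Ccl4, an inflammatory chemokine, at 72 and 1082 CPM (-3.91). Ccl6 was the other way, at 1864 CPM in DOX plus AMH and 729 CPM in DOX (1.35, 1.16 to 1.55), with a UMI in 36 of 38 and 44 of 57 cells. In Ly6c2-negative cells the median was 1.31 and Ccl4 stood at 0.51.

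Receptors as a list lay near all genes. Of 22 measured receptor genes, 8 were higher and 6 lower, with a median of 0.10. Among all genes at this limit, 37.4% were higher and 22.7% lower, with a median of 0.15. The interferon gamma receptor chain Ifngr1 was at 342 CPM in DOX plus AMH and 137 CPM in DOX (1.32, 0.87 to 1.79), and Csf2rb, the shared chain of the GM-CSF and interleukin-3 receptors, at 134 and 41.8 CPM (1.68). C5ar1, the receptor of complement C5a, was at 121 and 51.1 CPM (1.24), and at 0.98 (0.18 to 1.81) without its highest cell. Csf1r, the receptor that macrophages need for survival, was at 319 and 204 CPM (0.64, 0.24 to 1.05). These examples were all higher, while other receptors of the list were lower. Without the DOX cell highest for each, C3ar1 was at -0.73 (-1.44 to -0.05) and Csf2ra at -0.43 (-0.88 to 0.02).

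The 2 antigen presentation lists ran in opposite directions. Class I genes were lower in 11 of 12, none was higher, and the median was -0.86. The immunoproteasome subunits Psmb8, Psmb9 and Psmb10 stood at -1.37, -1.34 and -1.49, with Psmb8 at 388 CPM in DOX plus AMH and 1003 CPM in DOX. B2m, the light chain of class I molecules, was at 1898 and 2915 CPM (-0.62, -0.75 to -0.49), H2-D1 at 1427 and 2170 CPM (-0.60), and the peptide transporter Tap1 at 77.2 and 156 CPM (-1.01). In Ly6c2-negative cells the class I median was 0.48, with the subunits at 0.34, 0.60 and 0.96.

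Class II genes were higher in 5 of 9 and none was lower, with a median of 0.61. H2-Aa was at 2657 CPM in DOX plus AMH and 1470 CPM in DOX (0.85, 0.71 to 1.00), with a UMI in 21 of 38 and 26 of 57 cells. Cd74, the invariant chain, was at 6699 and 4295 CPM (0.64), and the class II transactivator Ciita at 87.4 and 44.1 CPM (0.99, 0.14 to 1.88). After thinning, H2-Aa had a UMI in 55.6% (38.1 to 72.1%) and 42.9% (29.7 to 56.8%) of cells, with overlapping intervals. In Ly6c2-negative cells H2-Aa was at 3040 and 2723 CPM and Cd74 at 7724 and 6630 CPM. In Ly6c2-positive cells they were at 2193 and 1191 CPM and at 5460 and 3774 CPM. The class II share of a cell's UMIs ran from 0.0306% to 5.58% in DOX plus AMH and 0.159% to 6.13% in DOX. In C1q-high macrophages the class II median was -0.01.

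Genes that mark monocyte stages and macrophages were mixed. Of 17 classical monocyte genes, 5 were higher and 5 lower; without the rule genes, 2 of 11 were higher and 3 lower, with a median of -0.20. Ms4a4c, a membrane protein of Ly6C-high monocytes, was at 229 CPM in DOX plus AMH and 1888 CPM in DOX (-3.04, -3.38 to -2.73). Among resident macrophage genes, 9 of 15 outside the rule were higher and 2 lower, with a median of 0.64. Selenop, a selenium carrier, was at 543 and 223 CPM (1.28, 0.93 to 1.65). A single DOX plus AMH cell held 59 of its UMIs, where the next highest cell had 23, and without it the ratio was 0.85 (0.47 to 1.23). It was also the cell with most Ccl8 and Pf4 UMIs. Resident macrophage genes took 3.47% of its UMIs, against a median of 0.399% in DOX plus AMH cells. The efferocytosis receptor Mertk was lower, at 23.1 and 95.2 CPM (-2.04), as was Cd68 at 221 and 353 CPM (-0.67). Of 9 non-classical monocyte genes, 4 were higher and 1 lower (median 0.34). Nr4a1, the factor that non-classical monocytes need, was at 226 and 74.3 CPM (1.61, 1.01 to 2.24), and their receptor Cx3cr1 at 121 and 167 CPM (-0.47, -1.03 to 0.08). Fabp4 stood at 1016 and 4.65 CPM, but 1 DOX plus AMH cell held 98% of its UMIs. That same cell held 10 of the Ly6c1 UMIs and the most UMIs of Cd36 (39) and of the endothelial marker Pecam1 (6). Lyz1 was another case of this kind, with 66.4% of its 119 DOX plus AMH UMIs in 1 of 2 cells.

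Transcription factor genes as a list were centred near 0, with 5 of 14 higher, 4 lower and a median of -0.05. Of all genes, 37.4% were higher and 22.7% lower at this limit. Klf4, which drives monocyte differentiation, was at 342 CPM (26 of 38 cells) in DOX plus AMH and 105 CPM (23 of 57 cells) in DOX, a ratio of 1.71 (1.21 to 2.23). Id2, an inhibitor of helix-loop-helix factors and a target of BMP-type signalling, is not on this list but on that of BMP, AMH and TGF-beta genes. It was at 113 CPM (18 cells) in DOX plus AMH and 13.9 CPM (4 cells) in DOX, a ratio of 3.02 (1.79 to 4.54). In C1q-high macrophages Id2 was level, at 83.9 and 80.7 CPM.

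Genes of the receptor system that AMH uses were sparse. Amhr2 itself had a UMI in 1 of 38 DOX plus AMH cells and 0 of 57 DOX cells, against 1.37% and 1.66% of stromal barcodes, at median depths of 9395 and 7310 UMIs in the members and 11662 and 15436 in stromal barcodes. Of 13 measured BMP, AMH and TGF-beta genes, 7 were higher and 3 lower, with a median of 0.56. Bmpr2, a type II receptor of BMPs, was at 103 and 62.7 CPM (0.71, -0.03 to 1.47). Id2, given above, was among the higher genes, as was Bambi, at 1.88 (0.18 to 3.95) without its highest cell. Tgfb1 was among the lower, at -0.68 (-1.15 to -0.23). The list median was -0.36 after each cell was thinned to 2000 UMIs and -0.20 without cells holding 3 or more UMIs of other leukocytes' markers, on the other side of 0.

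Glucocorticoid-induced genes were higher in 8 of 10 and lower in none, with a median of 0.92. Mt1, a metallothionein, was at 221 CPM (22 of 38 cells) in DOX plus AMH and 44.1 CPM (6 of 57 cells) in DOX, a ratio of 2.33 (1.60 to 3.13), with 52.6% of the DOX UMIs in 1 cell. Fkbp5, a co-chaperone of the glucocorticoid receptor, had 20 UMIs in 13 cells and 3 UMIs in 3 cells (2.88, 1.13 to 5.28). Sgk1, a kinase, had 25 and 4 UMIs (2.79), Tsc22d3, which encodes GILZ, 28 and 15 UMIs (1.05), and the phosphatase Dusp1 was at 391 and 228 CPM (0.78, 0.40 to 1.16). In C1q-high macrophages 11 of 15 were higher, with a median of 0.54.

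Targets of p53, the factor that DNA damage activates, went both ways in C1q-low cells. Of 20 measured, 4 were higher and 6 lower, with a median of -0.12 beside 0.15 for all genes. Bax, a pore-forming death protein, was at 345 CPM in DOX plus AMH and 671 CPM in DOX (-0.96, -1.27 to -0.66). Cdkn1a, the p21 cell cycle inhibitor, was at 581 and 799 CPM (-0.46, -0.71 to -0.21), and Mdm2 at 193 and 258 CPM (-0.42, -0.86 to 0.02). Rps27l was at 777 and 913 CPM (-0.23). The p53 median was -0.46 in C1q-high macrophages, where 19 of 33 genes were lower. Apoptosis regulators had 2 of 18 higher and 9 lower (median -0.29), including Bcl2l1 at 23.1 and 92.9 CPM (-2.01), with the survival gene Mcl1 at 591 and 648 CPM (-0.13).

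Phagocytosis and lysosome genes had 4 of 21 higher and 10 lower, with a median of -0.34. Fcgr1, the high-affinity IgG receptor, was at 111 CPM in DOX plus AMH and 862 CPM in DOX (-2.96, -3.45 to -2.50), with a UMI in 17 of 38 and 50 of 57 cells. Axl, an efferocytosis receptor, was at 25.7 and 132 CPM (-2.36) and Lgals3 at 977 and 1456 CPM (-0.58), whereas the protease Ctsl was at 265 and 81.3 CPM (1.70). Ctsb was at 1312 and 1020 CPM, but the DOX plus AMH cell with most Selenop UMIs held 37.5% of its UMIs. Without that cell the ratio was -0.27 in place of 0.36. Lipid-handling genes had 7 of 12 higher and 3 lower (median 1.10). Per cell the list was level, with a median of 0.264% of UMIs in DOX plus AMH and 0.267% in DOX. Of DOX plus AMH cells 17 of 38 lay above the DOX median, and of DOX cells 30 of 57 above the DOX plus AMH median. The list summed to 4364 and 3222 CPM, and that sum includes Fabp4, carried by 1 DOX plus AMH cell. Plin2, a lipid droplet coat protein, was lower at 154 and 420 CPM (-1.45), and the cholesterol exporter Abca1 higher at 54 and 11.6 CPM (2.22). Cd36 UMIs lay to 55.7% in the same DOX plus AMH cell that carried Fabp4, and 52.8% of the Lpl UMIs of DOX lay in 1 cell. In Ly6c2-negative cells the lipid median was -0.12.

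Complement genes were higher in 4 of 7 and lower in 2, with a median of 0.90. Component C3 was at 273 CPM in DOX plus AMH and 114 CPM in DOX (1.26). Mesothelial barcodes held C3 at 12679 CPM, and the part of free RNA in the members' level was not tested. Factor B, Cfb, was at 41.1 and 174 CPM (-2.08, -2.96 to -1.29). Inflammatory cytokine and NF-kB genes had 7 of 18 higher, 5 lower and a median of 0.03. Those counts lay near the shares of all genes at this limit, 37.4% higher and 22.7% lower. Il1b was at 244 and 460 CPM (-0.91, -1.28 to -0.55), with 38.9% of the DOX plus AMH UMIs in 1 cell, and the endotoxin co-receptor Cd14 at 165 and 76.7 CPM (1.10). Adhesion and migration genes (3 of 19 higher, 3 lower, median -0.02) and matrix proteases (2 of 6 higher, 1 lower, 0.01) had medians near 0. With TMM scaling the medians of inflammatory genes (-0.22), receptors (-0.15) and proteases (-0.23) lay below 0.

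Metabolic and stress lists varied less. The counts below stand beside 37.4% higher and 22.7% lower among all genes, and those of immediate-early and heat shock genes lay near these shares. Hypoxia and glycolysis genes had 7 of 14 higher and none lower, with a median of 0.49. Hk2, hexokinase, was at 149 and 69.7 CPM (1.10), Pgk1 at 224 and 135 CPM (0.73) and Gapdh at 736 and 720 CPM (0.03), while Pkm, pyruvate kinase, was at 301 and 353 CPM (-0.23, -0.59 to 0.13). NRF2, iron and haem genes had a median of 0.00, with 2 of 10 higher and 2 lower. Fth1, ferritin heavy chain, was at 4439 and 5352 CPM (-0.27), and Gclc, which starts glutathione synthesis, at 84.9 and 13.9 CPM (2.61). Immediate-early genes had 7 of 16 higher and 3 lower (median 0.24), with Egr1 at 105 and 18.6 CPM (2.50), Junb at 1075 and 841 CPM (0.35) and Atf3 at 293 and 520 CPM (-0.83). Heat shock genes had 4 of 12 higher and 3 lower (median 0.12), with the endoplasmic reticulum chaperone Hspa5 at 795 and 1417 CPM (-0.83). With TMM scaling the medians of heat shock (-0.12) and immediate-early genes (-0.01) lay below 0. Cell cycle genes were too few to read, with 1 G2/M and 2 S phase genes measured. A Mki67 UMI was present after thinning in 1 of 36 and 1 of 56 cells.

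**Figure D4:**
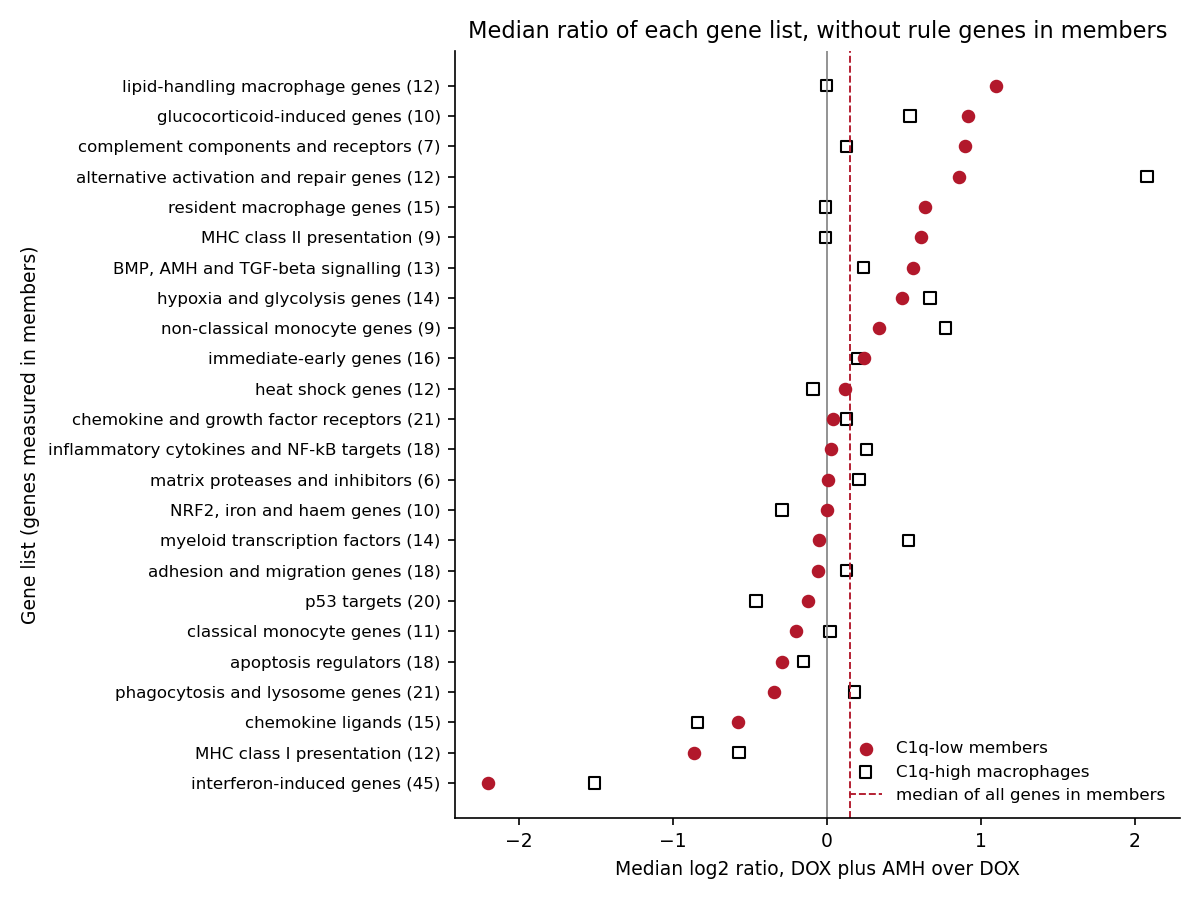
Median log2 ratio, DOX plus AMH over DOX, of each gene list with at least 5 measured genes, in C1q-low cells without rule genes (red points) and in C1q-high macrophages over all list genes (black squares); the dashed line is the median of all genes in C1q-low cells, 0.15. In C1q-low cells interferon-induced genes lie lowest at -2.20 and lipid-handling genes highest at 1.10, with alternative activation genes at 0.86.

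Other genes with high ratios, ranked by the interval end nearest 0 among genes in at least 10 cells and with no cell above 25% of UMIs in the higher library, included several outside these lists. Abtb2, an adaptor protein gene, was at 172 CPM in DOX plus AMH and 27.9 CPM in DOX (2.63, 1.73 to 3.65), and Ldlrad3, a low-density lipoprotein receptor family gene, at 162 and 25.6 CPM (2.66). F10, coagulation factor X, was at 165 and 39.5 CPM (2.06, 1.27 to 2.92), and in C1q-high macrophages at 75.4 and 2.86 CPM. Aplp2 stood at 2.13, the anthrax toxin receptor Antxr2 at 2.07 and the cytoskeletal gene Add3 at 1.85. Polr2a, the large subunit of RNA polymerase II, was at 216 and 48.8 CPM (2.15, 1.44 to 2.91). Of the 15 lowest genes, 11 were on the interferon list, and the others were Ifit1bl1, Ccl12, Ly6c2 and Ccl4.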

How the data were processed

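Single cells of 2 pooled uterine digests were measured by 10x Genomics 3′ v3.1 sequencing. The authors deposited raw UMI counts per gene and barcode, made with Cell Ranger 7.0.0 on mm10 per the submitters' processing notes. Barcodes had at least 500 UMIs in both deposited matrices. Library totals were 97887259 UMIs for DOX plus AMH and 129530270 for DOX.

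Barcodes were filtered and members chosen as described, with no clustering. UMIs were summed over members per library and scaled to CPM over all genes. Log2 ratios set DOX plus AMH over DOX, and their exact 95% intervals treat a gene's UMIs as split binomially between the libraries. Genes at 0 in one library were set against a floor of 3 counts per library. On simulated independent Poisson counts with these depths, 96.4% of 5317 such intervals held the true ratio. Those counts leave out the gathering of UMIs in single cells, so this checks the computation alone. The software was scanpy 1.11.5, numpy 2.4.6, scipy 1.17.1, pandas 2.3.3 and matplotlib 3.10.9.

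Named genes were the 15 highest and 15 lowest by the interval end nearest 0. They needed at least 50 UMIs, 20 CPM, 10 cells with a UMI, no cell above 25% of UMIs, and at least 0.2 of the CPM of every other class of at least 20 barcodes. That last size limit was chosen after the data were seen. Genes leading the contrasts with other cell sets and members of each list were added, and genes carried by 1 cell were picked with their values in view. The members and lists were chosen with earlier results of these data known. Doublets were kept. Scrublet's own threshold called 0 of 7065 barcodes in DOX plus AMH, so the DOX threshold, 0.191, was applied to both as an alternative, calling 4.63% and 5.09% of barcodes and 2 and 1 members. Alternatives changed the cell filter, the rule's limits, the scaling, the minimum counts, the weighting of cells and the members kept. A few genes of the lists are not reported here by name.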

Additional observations from a re-analysis of the deposited data

Results flagged for a closer look

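Among 2474 genes counted in both cell sets, 11 stood on opposite sides of 0 in C1q-low cells and C1q-high macrophages, at least 1.3-fold each way and with both counting intervals apart from 0. These differences between the cell sets were not tested. Polr2a was at 216 CPM in DOX plus AMH and 48.8 CPM in DOX in C1q-low cells (log2 ratio 2.15), and at 124 and 177 CPM in C1q-high macrophages (-0.51). Msr1, a scavenger receptor, was at 144 and 246 CPM (-0.77) in C1q-low cells, against 0.76 in C1q-high macrophages. Lair1, an inhibitory collagen receptor, had -0.97 against 0.52, and Tgfb1 -0.68 against 0.42. Apoc2, an apolipoprotein, had -0.64 against 0.57, and Ugcg, glucosylceramide synthase, -0.96 against 0.48. Fam168b had -0.82 against 0.42 and Gm26917 -0.73 against 0.39. Higher in C1q-low cells were Cytip at 0.64 against -0.63, Trir at 0.75 against -0.47 and Pik3c2a, a lipid kinase, at 0.67 against -0.43.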

How the results depend on the processing

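No paired analysis was possible because each group is 1 library. Of 1900 gene values under alternatives, 66 had the other sign, 10 of them for genes at least 2-fold apart. Of 456 list medians, 45 had the other sign, 7 of them for lists at least 1.3-fold apart, and the others for lists under that limit. The interferon median kept its side under every alternative run, and was -0.66 in Ly6c2-negative cells.

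The alternative activation median, rule genes included (1.63), was 0.83 without Scrublet calls, 0.94 with at least 3 of 7 markers, 2.19 in Ly6c2-positive cells, 0.73 in Ly6c2-negative cells, 0.44 without Arg1-positive cells and 2.04 with each cell thinned to 2000 UMIs. Subsets by Ly6c2 or Arg1 and the thinning of each cell were chosen after seeing the data. With a C1q sum under 20, members numbered 53 in DOX plus AMH and 62 in DOX, and the DOX plus AMH shares moved to 0.75% and 25.9%. With the rule applied after thinning they numbered 42 in DOX plus AMH and 73 in DOX, and the DOX shares moved to 0.97% and 29.4%. The gap in numbers between the libraries thus changed with the setting. The number of genes counted changed with the setting, so counts of genes at least 2-fold apart are given over it. Higher and lower genes numbered 182 and 219 of 2590 in the main run. They numbered 55 and 121 of 1181 with a 100 UMI minimum, and 2265 and 950 of 10482 with no minimum. In Ly6c2-negative cells they numbered 64 and 27 of 765. The higher count was 102 of 2590 with TMM scaling, 80 of 1460 without cells holding other leukocytes' markers and 104 of 1615 in Ly6c2-positive cells.

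Chemokine ligands changed side, to 0.47 with the rule after thinning, 0.12 without other leukocytes' markers and 1.31 in Ly6c2-negative cells. The BMP, AMH and TGF-beta median was -0.20 without other leukocytes' markers and -0.36 with each cell thinned. In Ly6c2-negative cells, of which DOX had 10, the class I median was 0.48 and the lipid median -0.12. Genes at least 2-fold apart that changed side there were Ear2 (-0.39), Ccl4 (0.51), Ly6e (0.05), Bst2 (0.03), Psmb8 (0.34), Psmb9 (0.60), Psmb10 (0.96) and Cfb (0.30). Lyz1 was -0.74 in Ly6c2-positive cells and Slc7a2 -0.04 without Arg1-positive cells. The cause was not tested. With 38 and 57 cells, genes of few UMIs rest on few cells, and no difference below the counting intervals was detectable at this depth.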
